A study of Homo sapiens with 16 samples.

Results

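The glycolysis and hypoxia response genes are 39 human genes, and 35 of them, among 18132 genes tested, were measured in Nalm6 cells. The list names the enzymes that carry glucose to lactate, their regulators, the genes of oxygen sensing and well-known targets of the hypoxia response. Each gene was read from a probe set, a group of array probes, whose annotation names that gene alone, and the brightest such probe set over the 16 arrays stood for the gene. SLC2A3, SLC16A1, SLC16A3 and CA9 had no such probe set and were not analysed here. Of the 35 measured genes, 33 lay above the dimmest 30% of genes, and the other 2, PFKFB2 and EGLN3, lay in it. No filter on low signal was used.

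Nalm6 is an established human line of acute lymphoblastic leukaemia, from B-cell precursors. The 4 groups were cells labelled as overexpressing active CASP1 and given prednisolone for 24 hours, the same cells untreated, control cells given prednisolone for 24 hours, and untreated control cells, with 4 arrays each. CASP1 is the inflammatory caspase and prednisolone is a synthetic glucocorticoid. All groups were the same line, in RPMI1640 medium with 10% serum and glutamine, and the sources used here do not give the oxygen or glucose of the cultures. Nor do they give the dose, the construct, its promoter or what the control cells carry, and the labels name a form of prednisone where the protocol names prednisolone. CASP1 signal went against its label. It averaged 5.02 ± 0.26 (log2, SD, n = 4) in treated cells labelled CASP1 and 6.95 ± 0.097 in treated control cells. The untreated means were 5.69 ± 0.25 on arrays labelled CASP1 and 7.75 ± 0.15 on control arrays. It was lower on each of the 8 arrays labelled CASP1 than on each of the 8 control arrays, so every direction between the lines below follows a label that the CASP1 signal goes against.

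The arrays had median log2 signals of 4.85 to 4.93, and the median correlation of an array with the others of its group lay between 0.9859 and 0.9976. Of 14 measured B-cell precursor markers, 12 were above the 70th percentile of genes, and none of the T-cell, myeloid, erythroid or stromal markers was, the highest being at percentiles 35.1, 37.9, 45.8 and 38. Summed linear signal of the B-cell precursor markers was 40728.5 in treated and 51223.5 in untreated cells labelled CASP1, and 46171.4 in treated and 50761.8 in untreated control cells. The part of this difference in the results below was not tested. In bulk RNA of this kind, fewer cells of a type and less RNA per cell cannot be told apart. Nothing in the labels says that the replicates were separate cultures, and the p-values therefore cover only the spread among these arrays.

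Glycolysis splits glucose into pyruvate, and lactate dehydrogenase turns pyruvate into lactate when it is not sent to the mitochondria. Many genes of the pathway are induced by hypoxia-inducible factor, a transcription factor whose alpha subunit is marked for destruction by oxygen-dependent prolyl hydroxylases. Glucocorticoids act through a nuclear receptor and are known to lower glucose uptake and glycolysis in lymphoid leukaemia cells.

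Promoter windows of the members were searched as a description of the list. Since the list names well-known targets of the hypoxia response, the shares below cannot speak to how the members moved across arrays. Hypoxia-inducible factor binds a short core, ACGTG or GCGTG, and the glucocorticoid receptor binds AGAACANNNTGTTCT and looser forms of it. RefSeq windows of GRCh38.p14, 250 bases before to 50 after each gene's start, existed for 31 of the 35 measured members. On either strand, ACGTG was in 13 of these windows (41.9%), in 23.9% of the 14425 windows of all genes tested and in 21.6% of all 27305 windows. GCGTG was in 16 (51.6%), against 44.5% and 36.3%, and either core in 23 (74.2%), against 56.5% and 48.4%. The palindrome CACGTG, which holds ACGTG on both strands, was in 5 member windows (16.1%), against 8.82% and 7.43%. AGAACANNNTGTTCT and the looser GNACANNNTGTNC, which overlap each other, were in 0 member windows. The full element was in 0 windows of tested genes and the looser form in 0.256% of them.

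The windows of the 4 members with the largest called prednisolone difference in either line are shown first, as the 250 bases before the start, 5′ to 3′ on the gene's strand, with either core of hypoxia-inducible factor in capitals, read on either strand. PKM lies at chr15:72231191-72231440 on the minus strand, PFKP at chr10:3067720-3067969 on the plus strand, PGK1 at chrX:78103998-78104247 on the plus strand and PFKM at chr12:48105623-48105872 on the plus strand. LDHA, at chr11:18394313-18394562 on the plus strand, and BNIP3, at chr10:131981924-131982173 on the minus strand, were added after their values were seen, as windows with 5 and 6 cores when CACGTG is counted once for each strand. ALDOC, not shown, also had 5 by that count.
PKM: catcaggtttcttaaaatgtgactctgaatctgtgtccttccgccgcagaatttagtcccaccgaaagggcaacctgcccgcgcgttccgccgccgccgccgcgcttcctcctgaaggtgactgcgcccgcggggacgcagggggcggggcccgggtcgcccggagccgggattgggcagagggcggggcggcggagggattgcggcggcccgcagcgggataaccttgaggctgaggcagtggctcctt
PFKP: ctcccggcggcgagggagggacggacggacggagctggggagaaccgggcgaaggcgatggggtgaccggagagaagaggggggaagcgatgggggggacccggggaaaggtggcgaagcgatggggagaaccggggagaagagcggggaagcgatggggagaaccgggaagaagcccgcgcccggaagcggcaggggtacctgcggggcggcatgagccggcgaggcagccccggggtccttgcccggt
PGK1: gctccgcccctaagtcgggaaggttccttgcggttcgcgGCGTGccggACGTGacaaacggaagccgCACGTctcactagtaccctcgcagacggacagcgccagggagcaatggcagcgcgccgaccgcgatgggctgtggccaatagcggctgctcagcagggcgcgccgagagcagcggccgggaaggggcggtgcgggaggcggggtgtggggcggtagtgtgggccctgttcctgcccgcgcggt
PFKM: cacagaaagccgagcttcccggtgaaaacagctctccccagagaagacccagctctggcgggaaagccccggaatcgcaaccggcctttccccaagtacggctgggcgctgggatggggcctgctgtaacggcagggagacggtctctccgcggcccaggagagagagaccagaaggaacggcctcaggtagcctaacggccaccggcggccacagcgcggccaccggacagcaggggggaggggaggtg
LDHA: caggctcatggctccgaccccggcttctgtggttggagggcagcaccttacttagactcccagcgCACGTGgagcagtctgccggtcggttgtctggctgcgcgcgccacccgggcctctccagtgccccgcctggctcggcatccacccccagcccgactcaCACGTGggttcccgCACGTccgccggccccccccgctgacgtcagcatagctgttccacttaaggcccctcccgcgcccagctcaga
BNIP3: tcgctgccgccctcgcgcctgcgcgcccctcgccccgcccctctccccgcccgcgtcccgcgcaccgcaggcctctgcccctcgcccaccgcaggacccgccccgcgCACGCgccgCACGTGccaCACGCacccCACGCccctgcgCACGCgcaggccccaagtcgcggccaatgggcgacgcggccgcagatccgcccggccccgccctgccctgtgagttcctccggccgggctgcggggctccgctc
The printed windows of PKM, PFKP and PFKM held 0 cores, and that of PGK1 held 3. A match of letters is a description of the window and not a site of binding.

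The 4 replicate 1 arrays stood apart from the other 12 for these genes. Both the members and the replicate 1 arrays were singled out with earlier results of these data known. The shares below are therefore a description, and no test was made of them. In 22 of the 35 members (62.9%) the replicate 1 array was below all 3 others in each of the 4 groups, where 5.99% of all genes tested had that pattern. In 1 member, PFKM, which encodes the muscle form of phosphofructokinase, it was above them in all 4 groups, a pattern that 6.68% of all genes had. The median member differed from the mean of replicates 2 to 4 by -0.42 in treated and -0.44 in untreated cells labelled CASP1, and by -0.38 in treated and -0.65 in untreated control cells. Medians over all genes were 0.01, 0.029, -0.017 and -0.007 in the same order. The labels give replicate numbers and no culture, day or scan for them, so the sources used here do not say what the replicate 1 arrays share.

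**Figure D1:**
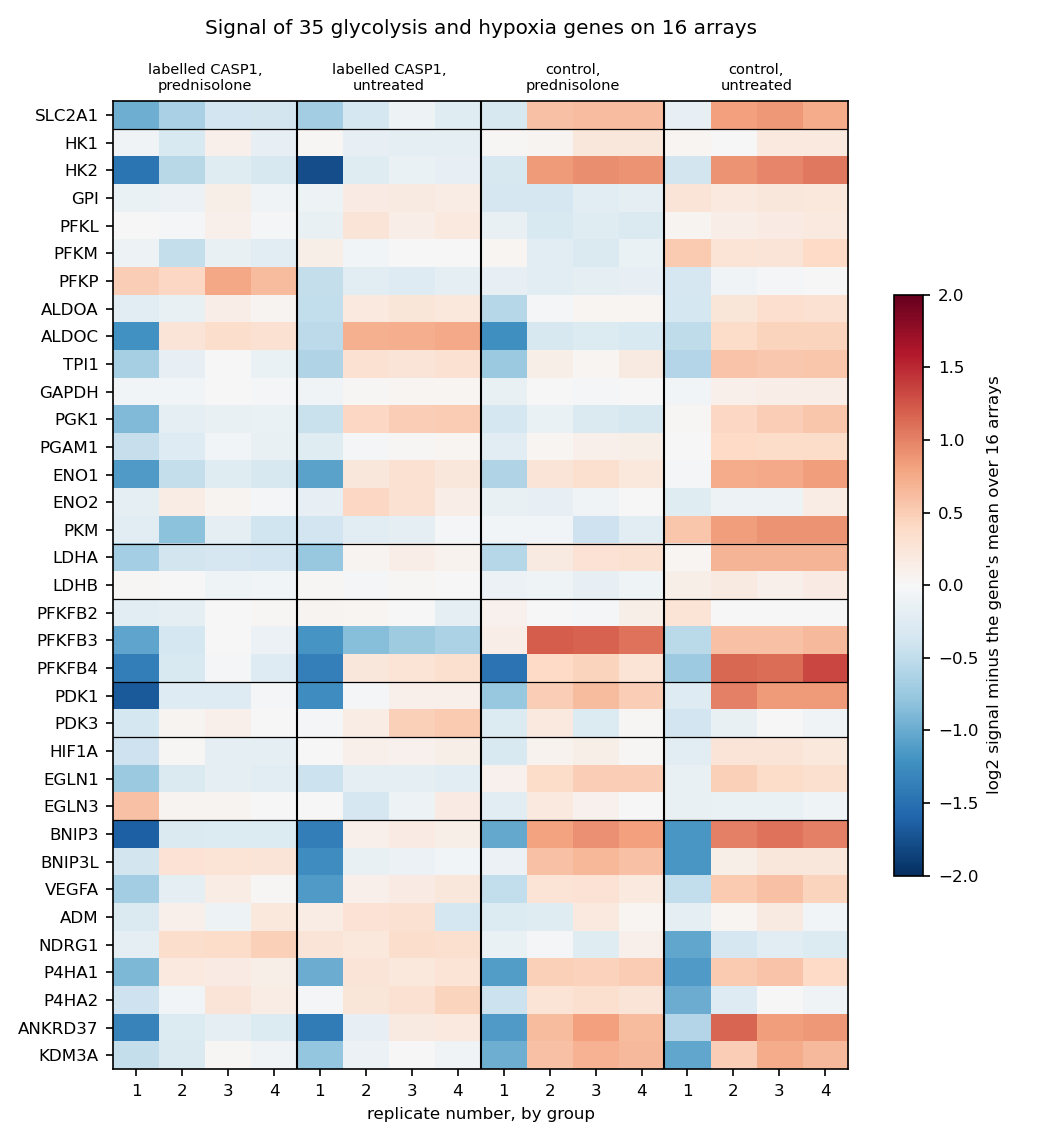
Log2 signal of the 35 measured members (rows, by role) on the 16 arrays (columns, by group and replicate number), as the difference from each gene's mean over the arrays. The replicate 1 column of each group is blue for most members, and PFKP stands out in treated cells labelled CASP1.

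The mean gap over the 4 groups was below -1 in 8 members, and it was largest in BNIP3. This gene, which encodes a mitochondrial protein that drives mitophagy, read 8.82 on replicate 1 and 10.17, 10.19 and 10.19 on replicates 2 to 4 of treated cells labelled CASP1, and 9.07 against 10.56, 10.63 and 10.58 in untreated ones. In control cells it read 9.44 against 11.27, 11.37 and 11.28 with prednisolone, and 9.3 against 11.46, 11.55 and 11.47 untreated. Replicates 2 to 4 of each group lay close together, and replicate 1 lay far below them in all 4 groups. The mean gap over the groups was -1.74 for BNIP3, -1.65 for PFKFB4, which sets the level of the phosphofructokinase activator fructose 2,6-bisphosphate, and -1.49 for ANKRD37. It was -1.38 for P4HA1, a collagen prolyl hydroxylase, -1.32 for HK2, which phosphorylates glucose, -1.31 for PDK1, which shuts off pyruvate dehydrogenase, -1.16 for ALDOC, an aldolase, and -1.09 for KDM3A, a histone demethylase. In no group was the gap larger in size than 0.08 for LDHB, 0.18 for GAPDH and 0.2 for HK1. Gaps of opposite sign gave PKM and EGLN3 means near 0 (-0.03 and 0.08). In PKM they were 0.26 in treated and -0.24 in untreated cells labelled CASP1, and 0.18 in treated and -0.33 in untreated control cells, and EGLN3 reached 0.55 in treated cells labelled CASP1.

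The other pathway lists gave these counts beside the 62.9% of the members. Of 32 other glycolysis and pyruvate genes, 3 (9.38%) were below all others in all groups on replicate 1, and 2, TIGAR (mean gap 0.62) and FBP1 (0.28), were above. Of 33 other hypoxia pathway genes 8 (24.2%) were below, including MXI1 (-0.89), FAM162A (-0.88) and INSIG2 (-0.8), and 4 were above, PPP1R3C (0.43), EPAS1 (0.41), TFRC (0.4) and HMOX1 (0.31). These genes were chosen after their values were seen. Of 7 pentose phosphate pathway genes 1 was below and 4 were above, with TKT, PGLS, TALDO1 and PGD at 0.37, 0.36, 0.32 and 0.2. By role, 8 of 15 glycolytic enzymes, 7 of 9 other hypoxia response genes, 2 of 3 PFKFB regulators and 2 of 3 oxygen-sensing genes were below in all 4 groups. The spread within groups changed with it. The median SD of the members was 0.296 over replicates 1 to 4 and 0.0955 over replicates 2 to 4, while that of all genes was 0.167 and 0.124. The limma fits below are therefore given for all 16 arrays and again for the 12 arrays of replicates 2 to 4. Neither fit has a term for the replicate number, so in the first the shared replicate 1 gap adds to the spread. A fit of all 16 arrays with such a term, a replicate block, called more members in each comparison and is given in the last section. Below, calls with all arrays are those of the fit without it.

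**Figure D2:**
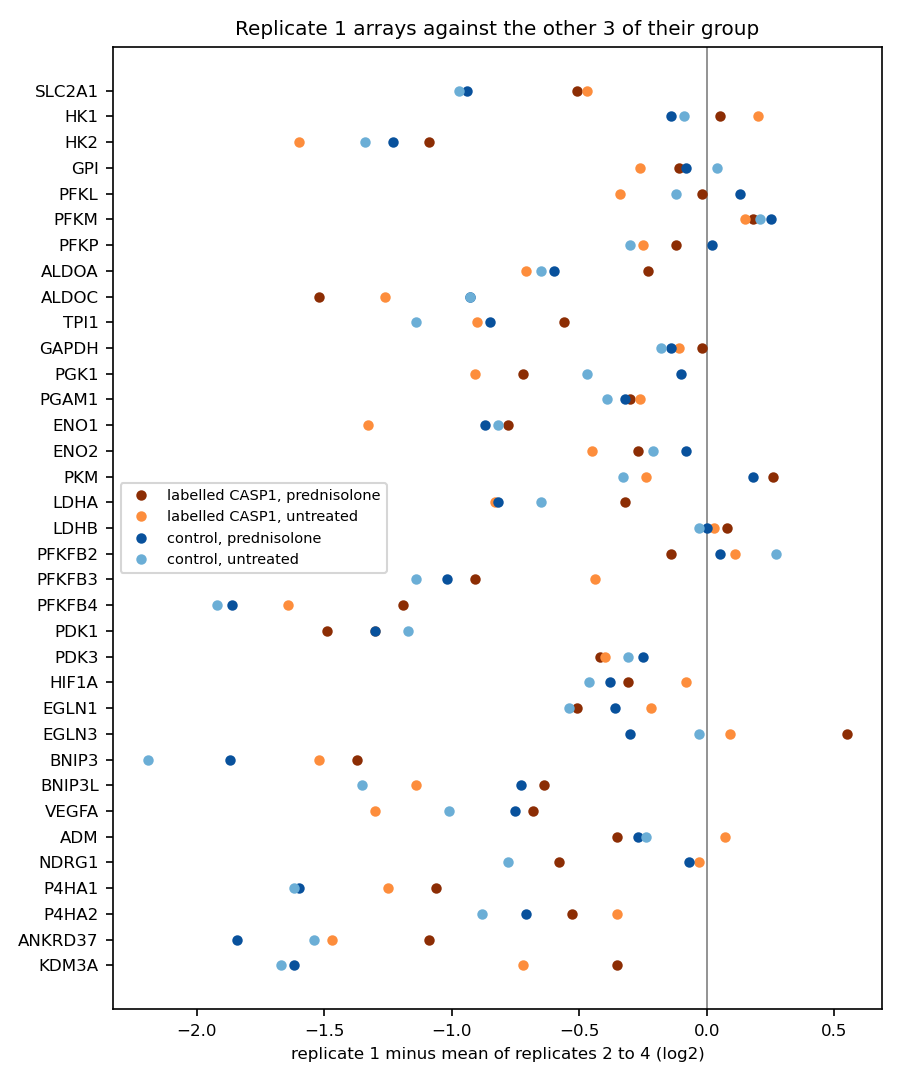
Difference between the replicate 1 array and the mean of replicates 2 to 4 (log2, x axis) for the 35 measured members, 1 point for each of the 4 groups. Points lie left of 0 for most members, to -2.19 for BNIP3 in untreated control cells, and PFKM lies right of 0 in all 4 groups.

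In cells labelled CASP1, prednisolone raised PFKP, and no member was called lower in the fit of all 16 arrays without a replicate block. In limma's test 1 of 35 members was called higher and 0 lower, at an adjusted p under 0.05, where 2.99% of all genes were called higher and 3.35% lower. Of 35 members 29 had a negative difference, with a median of -0.15, against 0.018 over all genes. At an unadjusted p under 0.05, 4 members were lower, a count with no share of all genes beside it. In replicates 2 to 4 alone 3 members were called higher and 7 lower, where 5.77% and 6.15% of all genes were, and the median was -0.19. Without replicate 1 of the untreated cells labelled CASP1 alone, 1 member was called lower.

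In control cells PKM, PGK1, PFKM, GPI, PFKL and LDHB fell with prednisolone. These were 6 members lower and 0 higher in limma's test, where 8.43% of all genes fell and 5.73% rose, and 17.1% of the members were called. At an unadjusted p under 0.05, 2 were higher, again with no share of all genes beside it. The median difference was -0.16, against -0.015 over all genes. In replicates 2 to 4 alone 15 members fell and 3 rose, where 13.1% of all genes fell and 8.8% rose, and the median was -0.19. When treated control replicate 1 alone was left out, 2 were higher. The 2 prednisolone comparisons share no arrays, but both use each gene's common estimate of the spread. With 12 arrays, 6 members were lower in both, ALDOC, ENO1, LDHA, PFKFB4, PGK1 and TPI1, which is 85.7% of the 7 members lower in cells labelled CASP1 and 40% of the 15 lower in control cells. BNIP3L and PFKFB3 were higher in both, which is 66.7% of the 3 higher in each. The same shares over all genes are not given here, so these overlaps cannot be read as particular to the members.

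**Figure D3:**
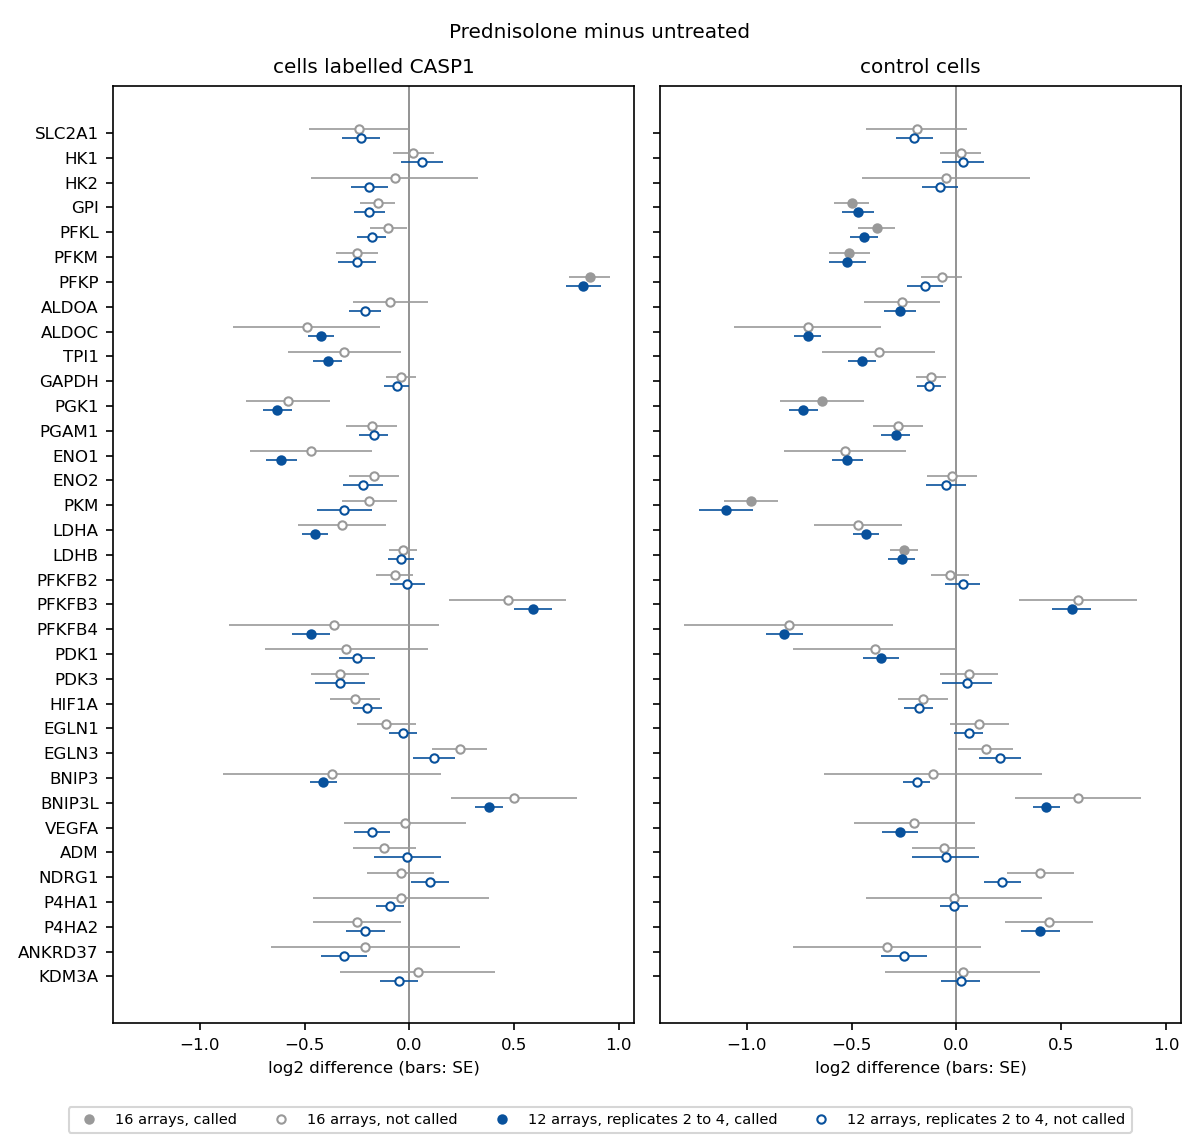
Prednisolone minus untreated (log2, x axis; bars are SE) for the 35 measured members in cells labelled CASP1 (left) and control cells (right), with all 16 arrays in grey and the 12 arrays of replicates 2 to 4 in blue. Filled points were called at an adjusted p under 0.05. PFKP is right of 0 in cells labelled CASP1 (0.86) and near 0 in control cells (-0.07), while PKM reaches -0.98 in control cells.

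Of the transporter and first enzymes of the pathway, GPI alone was called with prednisolone. SLC2A1, the main glucose carrier of proliferating cells, differed by -0.24 in cells labelled CASP1 and -0.19 in control cells, and HK2 by -0.07 and -0.05, and neither was called in either fit. GPI, which turns glucose 6-phosphate into fructose 6-phosphate, fell by 0.50 on the log2 scale in control cells (SE 0.084, adjusted p = 0.00035). It differed by -0.15 in cells labelled CASP1.

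The 3 phosphofructokinase genes encode the committing step of glycolysis. PFKP, the platelet form, read 10.21, 10.12, 10.49 and 10.35 in treated cells labelled CASP1, against 9.24, 9.49, 9.46 and 9.53 in the untreated ones. In control cells it read 9.54, 9.5, 9.52 and 9.54 with prednisolone and 9.37, 9.64, 9.67 and 9.71 untreated. Treated cells labelled CASP1 lay above all other arrays, and the other 3 groups lay close together. PFKP rose 1.82-fold in cells labelled CASP1 (log2 0.86, SE 0.098, adjusted p = 1.5e-05) and differed by -0.07 in control cells. PFKP has 1 probe set that names it alone. PFKM fell in control cells by 0.51 on the log2 scale (SE 0.1, adjusted p = 0.0015), and PFKL, the liver form, by 0.38 (SE 0.087, adjusted p = 0.0056). In cells labelled CASP1 they differed by -0.25 and -0.10 and were not called.

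Among the enzymes after phosphofructokinase, ALDOC, ENO1, PGK1 and TPI1 were lower with prednisolone in both lines in replicates 2 to 4, and of these PGK1 in control cells was called with all 16 arrays. PGK1, which makes ATP, read 10.99, 11.2, 11.05 and 11.02 in treated control cells, against 11.36, 11.76, 11.83 and 11.89 in untreated ones, so the groups did not overlap. Its difference was -0.64 (SE 0.2, adjusted p = 0.033), and it was -0.58 to -0.64 and not called without treated control replicate 1, 3 or 4 or untreated control replicate 2, 3 or 4 (adjusted p up to 0.1). All 9 PGK1 probe sets were lower in sign there and 1 was called, and their mean was not called (-0.65, adjusted p = 0.12). In cells labelled CASP1 PGK1 read 10.46, 11.16, 11.19 and 11.2 with prednisolone and 10.9, 11.76, 11.83 and 11.84 untreated. The difference there was -0.58 (SE 0.2, adjusted p = 0.097), and -0.63 (SE 0.07, adjusted p = 4e-05) in replicates 2 to 4. ENO1, an enolase, was lower by -0.61 and -0.52 in replicates 2 to 4 of cells labelled CASP1 and control cells (adjusted p = 9e-05 and 0.00016). With all arrays its differences were -0.47 and -0.53 and were not called (adjusted p = 0.46 and 0.31). TPI1, triose phosphate isomerase, was lower by -0.39 and -0.45 and ALDOC by -0.42 and -0.71 in replicates 2 to 4. GAPDH, often used as a reference for RNA amounts, differed by -0.04 and -0.12 with all arrays and was not called in any comparison in either fit.

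PKM, the pyruvate kinase of the last step, fell in control cells. It read 8.11, 8.1, 7.75 and 7.95 in treated control cells, against 8.71, 9, 9.05 and 9.05 in untreated ones, with no overlap. In cells labelled CASP1 it read 7.95, 7.34, 7.98 and 7.76 with prednisolone and 7.77, 7.94, 7.97 and 8.12 untreated, and these groups overlapped. The fall in control cells was 1.97-fold (log2 -0.98, SE 0.13, adjusted p = 4.3e-05), and 5 of 6 PKM probe sets were called lower there. The difference in cells labelled CASP1 was -0.19 and was not called, although 1 of its other probe sets was called lower there.

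Of the lactate enzymes, LDHA, which favours lactate, was not called with all arrays, at -0.32 in cells labelled CASP1 and -0.47 in control cells. In replicates 2 to 4 it read 11.93, 11.95 and 11.91 in treated cells labelled CASP1 and 12.34, 12.42 and 12.37 in untreated ones, and 12.48, 12.58 and 12.59 in treated control cells and 12.97, 12.98 and 12.97 in untreated ones. Treated arrays were below untreated ones in both lines, with differences of -0.45 (adjusted p = 0.00031) and -0.43 (adjusted p = 0.00019). LDHB, the heart form, fell in control cells by 0.25 on the log2 scale (SE 0.067, adjusted p = 0.016), a call that ended without treated control replicate 3 (adjusted p = 0.056) or after a second quantile normalization.

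Of the regulators, PFKFB3, a strong producer of fructose 2,6-bisphosphate, was higher with prednisolone in replicates 2 to 4, by 0.59 in cells labelled CASP1 (adjusted p = 0.00076) and 0.55 in control cells (adjusted p = 0.00054). PFKFB4 was lower there, by -0.47 (adjusted p = 0.0033) and -0.82 (adjusted p = 1.4e-05). With all 16 arrays neither was called, at 0.47 and 0.58 for PFKFB3 and -0.36 and -0.80 for PFKFB4. Of the 4 PFKFB3 probe sets 3 were higher in sign in each line. Of the 4 PFKFB4 probe sets 3 were lower in sign in cells labelled CASP1 and all 4 in control cells. PFKFB2 was dim and not called. PDK1 was lower in replicates 2 to 4 of control cells (-0.36, adjusted p = 0.0074) and was not called in cells labelled CASP1, and PDK3, a related kinase, was not called with prednisolone.

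HIF1A, the alpha subunit of hypoxia-inducible factor, was not called with prednisolone, at -0.26 in cells labelled CASP1 and -0.16 in control cells, nor were the prolyl hydroxylases EGLN1 and EGLN3. Among the other targets, BNIP3L, a mitophagy receptor related to BNIP3, was higher in both lines in replicates 2 to 4, by 0.38 (adjusted p = 0.0018) and 0.43 (adjusted p = 0.00031). BNIP3 itself was lower in cells labelled CASP1 there (-0.41, adjusted p = 0.00074) and was not called in control cells. VEGFA, the blood vessel growth factor, was lower by -0.27 (adjusted p = 0.041) and P4HA2, a collagen prolyl hydroxylase, higher by 0.40 (adjusted p = 0.0064) in replicates 2 to 4 of control cells. ADM, ANKRD37, KDM3A, NDRG1 and P4HA1 were not called with prednisolone in either line or fit.

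Between the lines, SLC2A1, HK2, PFKFB3 and EGLN1 were lower in both treatments in cells labelled CASP1, whose CASP1 signal was itself lower. With prednisolone, 4 members were lower and 1 higher in cells labelled CASP1 than in control cells, where 8.52% of all genes were lower and 7.88% higher. Without treatment 6 were lower and 2 higher, where 8.2% of all genes were lower and 5.87% higher. The medians were -0.16 and -0.20, against 0.045 and 0.007 over all genes. In replicates 2 to 4 alone, 16 were lower and 5 higher with prednisolone, where 10.8% of all genes were lower and 11.6% higher, and 19 were lower and 5 higher untreated, where 12.8% and 8.53% were. With all arrays, the 4 members lower in both treatments were 100% of the 4 lower under prednisolone and 66.7% of the 6 lower untreated. These shares, too, have none of all genes beside them. Without untreated control replicate 4 alone, 3 members were lower untreated. Under prednisolone, 3 were higher without replicate 1 of untreated cells labelled CASP1, and 2 without replicate 1 of either treated group. The treated and untreated comparisons share no arrays.

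**Figure D4:**
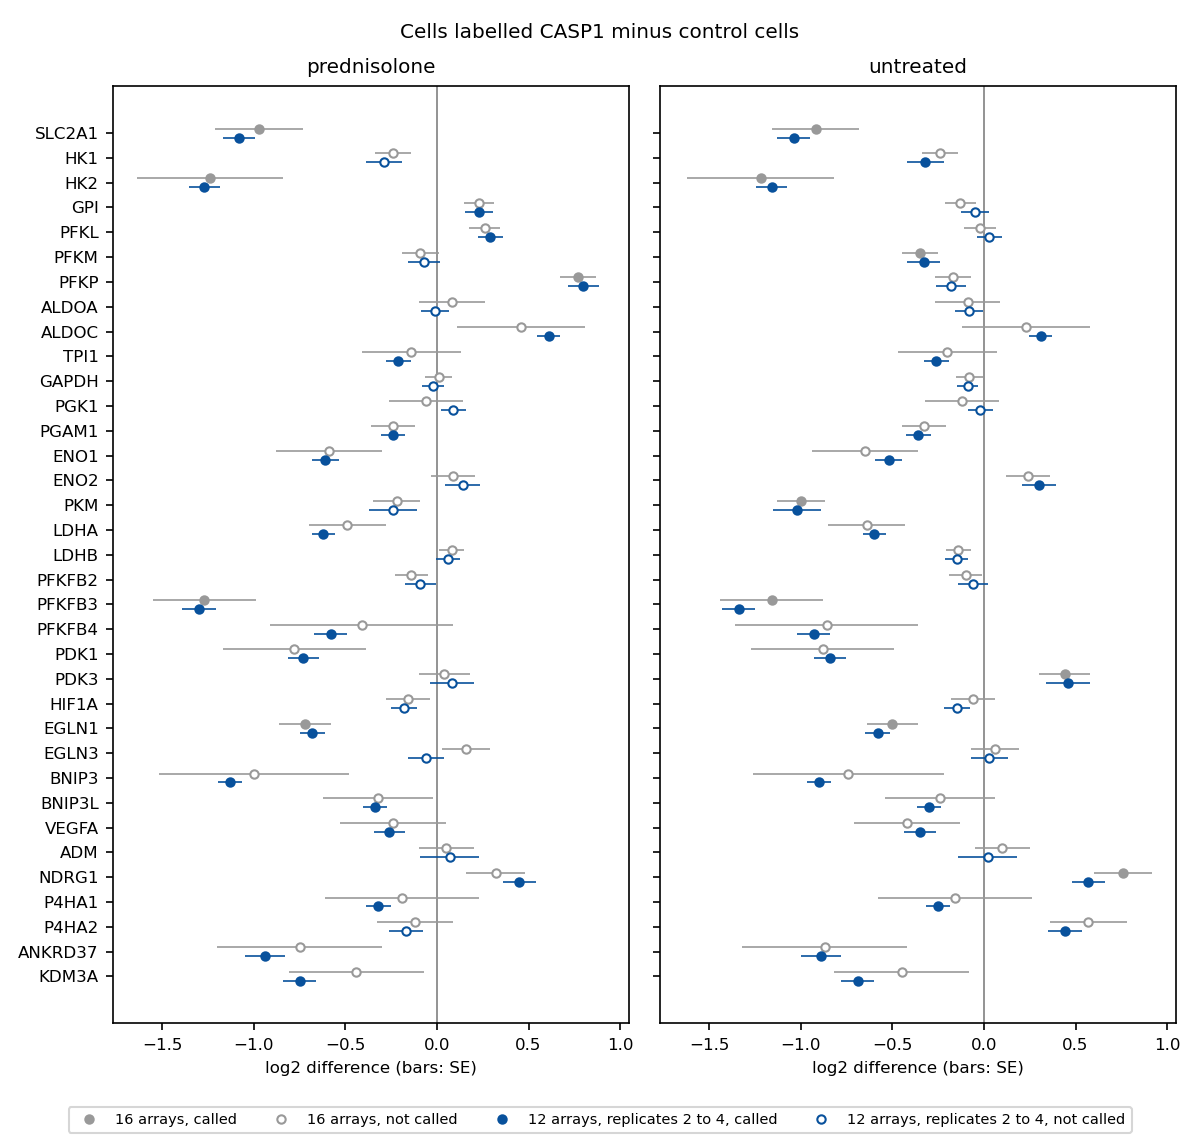
Cells labelled CASP1 minus control cells (log2, x axis; bars are SE) for the 35 measured members under prednisolone (left) and untreated (right), with all 16 arrays in grey and replicates 2 to 4 in blue. Filled points were called at an adjusted p under 0.05. SLC2A1, HK2, PFKFB3 and EGLN1 are filled and left of 0 in both panels in both fits, and CASP1 signal itself was lower in the cells labelled CASP1.

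SLC2A1, the glucose carrier, was lower in cells labelled CASP1 in both treatments. It read 6.64, 6.97, 7.24 and 7.25 in treated cells labelled CASP1, against 7.29, 8.21, 8.23 and 8.24 in treated control cells. Untreated, it read 6.92, 7.27, 7.51 and 7.37 in cells labelled CASP1, against 7.46, 8.43, 8.49 and 8.36 in control cells. The treated groups did not overlap, and in untreated cells control replicate 1 lay below the highest array labelled CASP1. The differences were -0.97 (SE 0.24, 1.96-fold lower, adjusted p = 0.0082) and -0.92 (SE 0.24, 1.89-fold lower, adjusted p = 0.013).

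HK2, the hexokinase that traps glucose in the cell, was also lower. It read 7.95, 8.86, 9.17 and 9.1 in treated cells labelled CASP1 and 9.09, 10.27, 10.35 and 10.32 in treated control cells. Untreated, it read 7.64, 9.17, 9.28 and 9.26 in cells labelled CASP1 and 9.05, 10.31, 10.39 and 10.48 in control cells. Replicate 1 of control cells lay below the highest array labelled CASP1 in both treatments, so the groups overlapped. The differences were -1.24 (SE 0.4, adjusted p = 0.041) and -1.22 (SE 0.4, adjusted p = 0.049), and -1.27 (SE 0.086, adjusted p = 3.3e-07) and -1.16 (adjusted p = 9e-07) in replicates 2 to 4. The treated difference was -0.96 without treated replicate 1 of cells labelled CASP1 (adjusted p = 0.13), and -1.12 to -1.26 and not called without their replicate 2 or treated control replicate 2, 3 or 4. The untreated one was -0.82 without untreated replicate 1 of cells labelled CASP1 (adjusted p = 0.17), and -1.08 to -1.37 and not called without replicate 2, 3 or 4 of any of the 4 groups. That call also ended after a second quantile normalization (adjusted p = 0.055), after centring on the 75th percentile (adjusted p = 0.053) and when only the groups compared were fitted (adjusted p = 0.064). HK1, the other hexokinase, differed by -0.24 in both treatments and was called only for untreated replicates 2 to 4 (-0.32, adjusted p = 0.038).

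PFKFB3 read 7.03, 7.74, 8.1 and 7.97 in treated cells labelled CASP1, against 8.22, 9.3, 9.26 and 9.17 in treated control cells. Untreated, it read 6.91, 7.24, 7.37 and 7.45 in cells labelled CASP1, against 7.55, 8.67, 8.67 and 8.73 in control cells. Neither pair of groups overlapped. The differences were -1.27 (SE 0.28, 2.42-fold lower, adjusted p = 0.0042) and -1.16 (SE 0.28, 2.24-fold lower, adjusted p = 0.0087). Of its 4 probe sets 3 were lower in sign in each treatment, and the mean of all 4 was not called. PFKFB4 was lower in replicates 2 to 4, by -0.58 and -0.93, and PDK1 by -0.73 and -0.84, and neither was called with all arrays.

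EGLN1, the main prolyl hydroxylase acting on hypoxia-inducible factor, was lower by -0.72 with prednisolone (SE 0.14, adjusted p = 0.002) and by -0.50 untreated (SE 0.14, adjusted p = 0.024). Its groups did not overlap in either treatment. The untreated difference was -0.43 to -0.48 and not called without untreated replicate 1 of cells labelled CASP1 or untreated control replicate 2, 3 or 4, and the mean of its 3 probe sets was not called (-0.37, adjusted p = 0.2). HIF1A differed by -0.16 and -0.06, and EGLN3 by 0.16 and 0.06, and neither was called. Of the remaining targets, BNIP3, BNIP3L, VEGFA, P4HA1, ANKRD37 and KDM3A were lower in both treatments in replicates 2 to 4, by up to -1.13 (BNIP3, treated). On the brightest probe set, none was called with all 16 arrays. Under prednisolone, 5 of the 10 VEGFA probe sets were lower in sign with all arrays and 1 was called higher, so the direction of VEGFA depends on the probe set. The less bright of the 2 BNIP3 probe sets was called lower there.

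NDRG1, a stress-responsive gene of growth arrest and differentiation, went the other way. It read 6.52, 6.46, 6.61 and 6.58 in untreated cells labelled CASP1, against 5.21, 5.92, 6.05 and 5.98 in untreated control cells. With prednisolone it read 6.08, 6.6, 6.62 and 6.73 in cells labelled CASP1 and 6.13, 6.23, 6.01 and 6.36 in control cells. The untreated groups did not overlap and the treated ones did. The difference was 0.76 untreated (SE 0.16, adjusted p = 0.0041) and 0.32 with prednisolone (adjusted p = 0.21), and 0.57 (adjusted p = 0.00043) and 0.45 (adjusted p = 0.0025) in replicates 2 to 4. Of its 6 probe sets 1 was called in the untreated comparison, and the mean of all 6 was not. P4HA2 was also higher untreated in replicates 2 to 4 (0.44, adjusted p = 0.0035). It was not called under prednisolone there (-0.17), nor with all arrays in either treatment. PDK3 was higher untreated by 0.44 (SE 0.14, adjusted p = 0.049), and it was 0.36 to 0.48 and not called without untreated control replicate 1 or without replicate 2, 3 or 4 of any group, except treated control replicate 2.

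PKM and PFKP differed between the lines in 1 treatment each. On its brightest probe set, PKM was 2-fold lower in untreated cells labelled CASP1 than in untreated control cells (log2 -1.0, SE 0.13, adjusted p = 5.8e-05). All 6 PKM probe sets were lower in sign there, by -1.0 to -0.16, and 3 were called. Under prednisolone PKM differed by -0.22, and 1 of its other probe sets was called higher. PFKP was 1.7-fold higher under prednisolone (log2 0.77, SE 0.098, adjusted p = 3.2e-05) and differed by -0.17 untreated. PFKM was lower untreated by -0.35 (SE 0.1, adjusted p = 0.024), and by -0.30 to -0.34 and not called without untreated replicate 2, 3 or 4 of cells labelled CASP1 or untreated control replicate 1 or 4. ENO1, LDHA, PGAM1 and TPI1 were lower in both treatments in replicates 2 to 4, by -0.21 to -0.62, and ALDOC was higher by 0.61 and 0.31. In the same arrays GPI (0.23, adjusted p = 0.04) and PFKL (0.29, adjusted p = 0.0064) were higher under prednisolone. ENO2 was higher there untreated (0.3, adjusted p = 0.036). None of GPI, PFKL and ENO2 was called between the lines with all arrays. GAPDH, ALDOA and PGK1 were not called between the lines in either fit.

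The interaction, which takes the response of control cells to prednisolone from that of cells labelled CASP1, asked whether the lines responded differently. It was called for 1 member, PFKP (0.93, SE 0.14, adjusted p = 0.0031), where 0.524% of all genes were called higher and 0.364% lower. Without untreated control replicate 1 or treated replicate 2 of cells labelled CASP1, 2 members were called. PKM was at 0.78 (SE 0.19, adjusted p = 0.061) with all arrays and at 0.79 (adjusted p = 0.036) in replicates 2 to 4, a smaller fall in cells labelled CASP1. P4HA2 was at -0.69 (adjusted p = 0.41) with all arrays and at -0.61 (adjusted p = 0.02) in replicates 2 to 4. The remaining 32 members were not called in either fit, where 2.72% of all genes were called higher and 1.29% lower in replicates 2 to 4. This comparison shares its arrays with the 4 others.

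**Figure D5:**
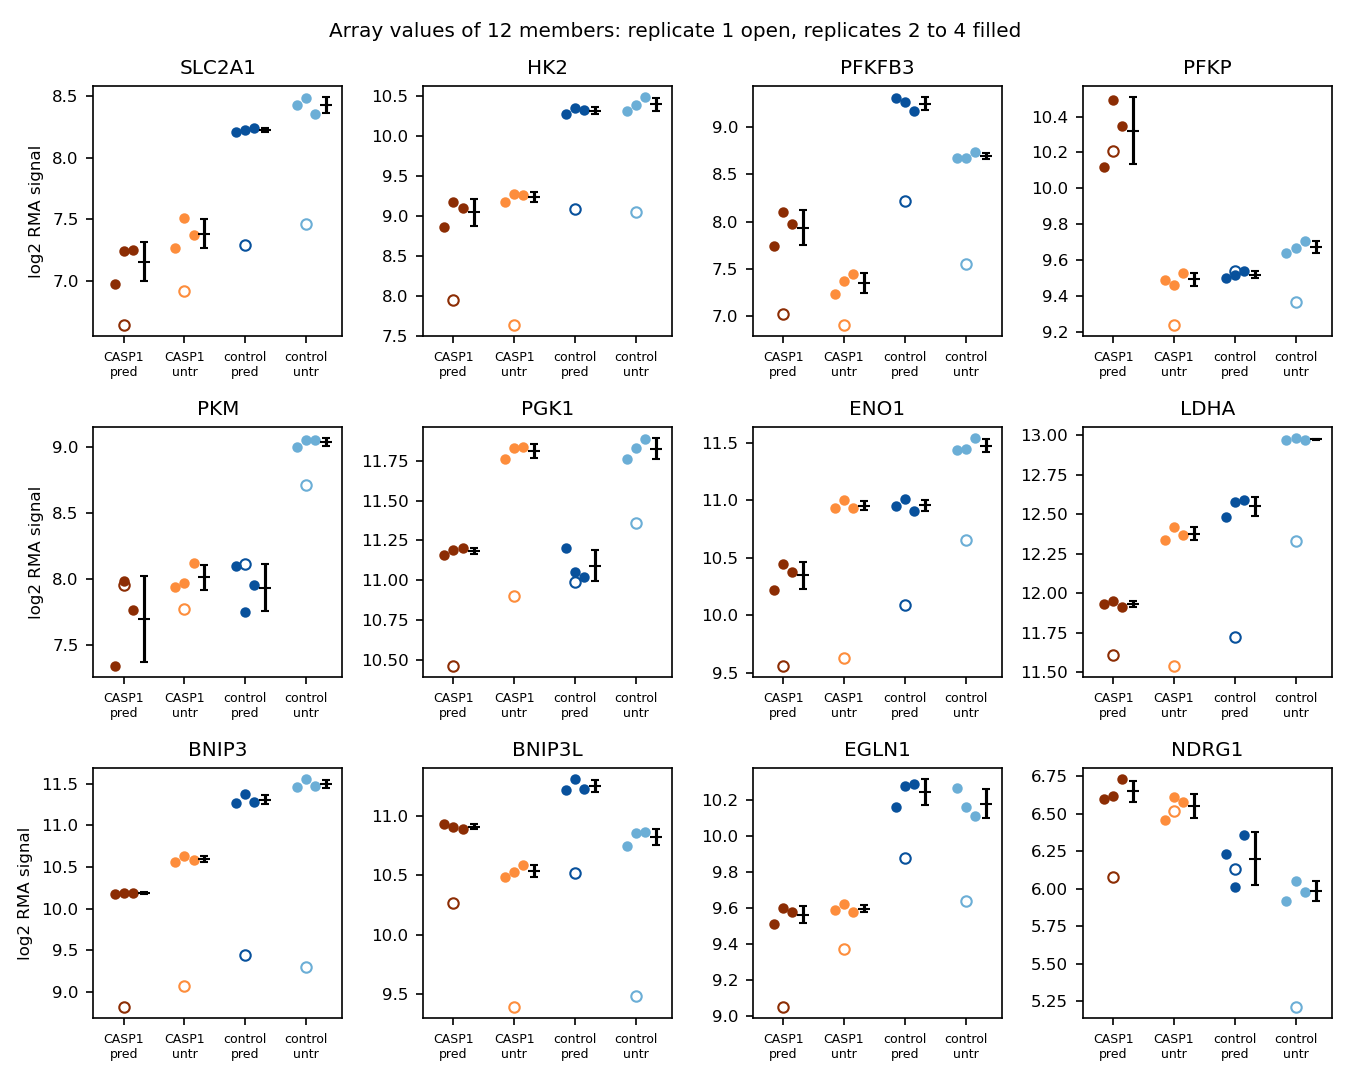
Log2 RMA signal (y axis, a scale for each gene) of SLC2A1, HK2, PFKFB3, PFKP, PKM, PGK1, ENO1, LDHA, BNIP3, BNIP3L, EGLN1 and NDRG1 on each array by group, with replicate 1 as open circles, replicates 2 to 4 as filled circles and the mean ± SD of replicates 2 to 4 as black bars. Open circles lie below the filled ones for BNIP3, HK2 and ENO1 in all 4 groups, and the treated cells labelled CASP1 stand above the rest for PFKP.

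Other genes of the pathway were read from 3 further lists. With prednisolone, 32 other glycolysis and pyruvate genes had 1 higher and 1 lower in cells labelled CASP1, and 2 higher and 2 lower in control cells. These shares of the list (1 or 2 of 32) lie near those of all genes, 2.99% higher and 3.35% lower in cells labelled CASP1 and 5.73% higher and 8.43% lower in control cells. In control cells PDP1, which reactivates pyruvate dehydrogenase, rose by 0.58 (adjusted p = 0.0012) and SLC2A6, a glucose transporter, by 0.57 (adjusted p = 0.0025), and DLAT, a pyruvate dehydrogenase subunit, was lower by -0.44 (adjusted p = 0.0058). In cells labelled CASP1 SLC2A8, another transporter, rose by 0.35 (adjusted p = 0.041) and PDHX, a pyruvate dehydrogenase component, was lower by -0.36 (adjusted p = 0.041). Of 7 pentose phosphate genes, the pathway that makes ribose and NADPH from glucose 6-phosphate, RPE and RPIA were lower in both lines. RPE was lower by -0.58 and -0.70 (adjusted p = 0.033 and 0.0047) and RPIA by -0.47 and -0.71 (adjusted p = 0.011 and 0.00012). These 2 were 28.6% of the list in each line, where 3.35% and 8.43% of all genes were lower.

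The other hypoxia pathway list had 2 of 33 higher and 1 lower in cells labelled CASP1, and 3 higher and 1 lower in control cells, with the same shares of all genes beside them. DDIT4, an inhibitor of mTOR signalling, rose by 1.05 (adjusted p = 6.1e-06) and 1.11 (adjusted p = 1.1e-06), and KDM4B, a histone demethylase, by 0.74 and 1.22. STC2, a secreted glycoprotein, fell by 0.69 and by 1.0 on the log2 scale.

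Between the lines, the other glycolysis and pyruvate genes had 3 of 32 higher and 6 lower in cells labelled CASP1 with prednisolone, and 1 higher and 3 lower untreated. The other hypoxia pathway genes had 1 of 33 higher and 4 lower with prednisolone, and 1 higher and 2 lower untreated, and the pentose phosphate genes 1 of 7 higher and 2 lower, and 0 higher and 2 lower. Over all genes 7.88% were higher and 8.52% lower with prednisolone, and 5.87% higher and 8.2% lower untreated. GPD2, the mitochondrial glycerol phosphate dehydrogenase, was lower in cells labelled CASP1 by -0.79 with prednisolone and -0.85 untreated, and GBE1, the glycogen branching enzyme, by -0.69 and -0.68. RPIA was lower by -0.49 and -0.73 and RPE by -0.56 and -0.67. With prednisolone, AK4, an adenylate kinase, was lower by -0.69 and SLC2A6 by -0.57, while SLC2A8 was higher by 0.44, PLOD1, a lysyl hydroxylase of collagen, by 0.43, and SHPK, sedoheptulokinase, by 0.33. Untreated, JMJD6 was lower by -0.60 and PGM2, a phosphopentomutase, by -0.44, while KDM4B was higher by 0.67 and PDP1 by 0.40.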

How the data were processed

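Total RNA of 16 Nalm6 samples was read on Affymetrix PrimeView arrays, with 4 arrays in each of 4 groups taken from the labels. Per the submitters' processing notes, the authors used RMA to make the deposited log2 signals. Its software version and probe set definition were not given in the sources used here. Since RMA puts arrays on a common scale, RNA per cell was not measured. Of 49395 probe sets, 44988 had 1 gene in the platform annotation, 1832 had several, and 2575 had none or were controls. The table had 0 columns of no sample. For arrays, their number limits the precision.

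The brightest single-gene probe set stood for each of 18132 genes, 6398 of which had 1 probe set. The RefSeq gene table held 99.94% of the Entrez identifiers. limma 3.58.1 (R 4.3.3) fitted 4 group means to all 16 arrays (12 residual and 5.46 prior degrees of freedom, eBayes without trend). The two-sided p was adjusted over all genes (Benjamini-Hochberg), and each adjusted p printed is limma's. The fit was tested on simulated data with independent noise on each array. That test did not cover the deviation that the replicate 1 arrays share. The fit to the data was repeated without the 4 replicate 1 arrays, and the simulation was not. The members, the lists and the split by replicate 1 were chosen with earlier results of these data known.

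Array values are given for members called with an absolute log2 difference of at least 0.75 or with an interaction call. BNIP3, PGK1 and LDHA were added after their values were seen. Of the other lists, up to 3 called genes with the largest difference were named in each comparison. Promoter windows came from RefSeq (GRCh38.p14). Alternatives were a second quantile normalization, centring on the 75th percentile, leaving out the dimmest 30% of genes, averaging probe sets, fitting only the groups compared, a replicate block, and leaving out single arrays.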

Additional observations from a re-analysis of the deposited data

Results flagged for a closer look

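Within groups, 67 of 140 tests of single arrays found 1 array far from the other 3 of its group, by Dixon's test on the gap to its nearest neighbour. For a single gene, chance gives about 1 such array in 20 groups. The tests of the members read the same arrays and are not independent, and the members were chosen with earlier results of these data known. The rate of 1 in 20 therefore cannot be set against the 67, which are given as a description. The 67 were 47.9% of the tests of the members, and over all genes the same test found such an array in 8.71% of tests, with 71.1% of these arrays being replicate 1. All 67 were replicate 1 arrays, in 28 of the 35 members, and 64 lay below the other 3. The values that follow are the replicate 1 signal minus the mean of the other 3 arrays (log2).

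In treated cells labelled CASP1, the transporter, glycolytic and lactate genes with such an array were ALDOC (-1.52), PGK1 (-0.72) and LDHA (-0.32). In treated cells labelled CASP1, the regulators, oxygen-sensing genes and hypoxia targets with such an array were PDK1 (-1.49), EGLN1 (-0.51) and EGLN3 (0.55). The others were BNIP3 (-1.37), BNIP3L (-0.64), P4HA1 (-1.06) and ANKRD37 (-1.09). In untreated cells labelled CASP1, the transporter, glycolytic and lactate genes with such an array were HK1 (0.2), HK2 (-1.6), GPI (-0.26), ALDOA (-0.71) and ALDOC (-1.26). The others were TPI1 (-0.9), GAPDH (-0.11), PGK1 (-0.91), ENO1 (-1.33) and LDHA (-0.83). In untreated cells labelled CASP1, the regulators, oxygen-sensing genes and hypoxia targets with such an array were PFKFB4 (-1.64), PDK1 (-1.3), EGLN1 (-0.22) and BNIP3 (-1.52). The others were BNIP3L (-1.14), VEGFA (-1.3), P4HA1 (-1.25) and KDM3A (-0.72). In treated control cells, the transporter, glycolytic and lactate genes with such an array were SLC2A1 (-0.94), HK2 (-1.23), ALDOA (-0.6) and ALDOC (-0.93). The others were TPI1 (-0.85), GAPDH (-0.14), ENO1 (-0.87) and LDHA (-0.82). In treated control cells, the regulators, oxygen-sensing genes and hypoxia targets with such an array were PFKFB3 (-1.02), PFKFB4 (-1.86), PDK1 (-1.3), BNIP3 (-1.87) and BNIP3L (-0.73). The others were VEGFA (-0.75), P4HA1 (-1.6), P4HA2 (-0.71), ANKRD37 (-1.84) and KDM3A (-1.62). In untreated control cells, the transporter, glycolytic and lactate genes with such an array were SLC2A1 (-0.97), HK2 (-1.34), ALDOA (-0.65), ALDOC (-0.93) and TPI1 (-1.14). The others were GAPDH (-0.18), PGAM1 (-0.39), ENO1 (-0.82), PKM (-0.33) and LDHA (-0.65). In untreated control cells, the regulators, oxygen-sensing genes and hypoxia targets with such an array were PFKFB2 (0.27), PFKFB3 (-1.14), PFKFB4 (-1.92), PDK1 (-1.17) and HIF1A (-0.46). The others were BNIP3 (-2.19), BNIP3L (-1.35), VEGFA (-1.01), NDRG1 (-0.78), P4HA1 (-1.62) and KDM3A (-1.67).

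The prednisolone response differed between the lines for PFKP, with an interaction of 0.93 in limma's test of the difference itself (adjusted p = 0.0031, all 16 arrays). PKM (0.79, adjusted p = 0.036) and P4HA2 (-0.61, adjusted p = 0.02) differed in the same test in replicates 2 to 4, and not with all arrays.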

How the results depend on the processing

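The median difference of the members kept its sign in each of the 5 comparisons in every alternative run except, for the interaction, leaving out single arrays. The counts of called members moved with the replicate 1 arrays. In the order prednisolone in cells labelled CASP1, prednisolone in control cells, lines under prednisolone, lines untreated and interaction, the members called higher and lower were 1 and 0, 0 and 6, 1 and 4, 2 and 6, and 1 and 0. Without the 4 replicate 1 arrays together they were 3 and 7, 3 and 15, 5 and 16, 5 and 19, and 2 and 1, and with a replicate block 3 and 4, 4 and 13, 3 and 11, 3 and 14, and 1 and 1. The cause was not tested. For the replicate block, the other alternatives and the fits without single arrays, here and above, no shares of all genes stand beside the counts. Those counts therefore cannot be read as particular to the members. All 21 calls of the 16 arrays were kept without the replicate 1 arrays.

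The members higher under prednisolone between the lines were 3 after a second quantile normalization and after centring on the 75th percentile, and 2 without the dimmest 30% of genes. The interaction had 2 members higher after both normalizations. With probe sets averaged per gene, 1 member was higher untreated between the lines. Leaving out single arrays gave, for prednisolone in cells labelled CASP1, 1 to 1 higher, 0 to 1 lower and a median of -0.26 to -0.03. For prednisolone in control cells it gave 0 to 2, 4 to 7 and -0.39 to -0.04, for the lines under prednisolone 1 to 3, 3 to 5 and -0.28 to -0.08, for the lines untreated 1 to 3, 3 to 8 and -0.3 to -0.1, and for the interaction 1 to 2, 0 to 0 and -0.15 to 0.26. In the 250 bases before the start alone, either core was in 20 of 31 member windows (64.5%), against 50.9% of tested genes.

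Same-numbered arrays correlated in their deviations from the group means by -0.116 to 0.507 (median 0.174), and arrays of different numbers by -0.351 to 0.3 (median -0.046). The number 1 pairs lay between 0.191 and 0.507 (median 0.388), and all 6 were over 0.1. Of all 24 same-numbered pairs 15 were over 0.1, and 7 of 16 arrays correlated best with their own number. Since not every pair passed 0.1 and the labels name no shared culture or day, the replicate block is given here only. It ended none of the 21 calls and added 36. The signal of PFKFB2 and EGLN3, among the dimmest 30% of genes, limits what can be read from them.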
